A study of Danio rerio with 12 samples.

Results

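Collagens are the fibrous and sheet-forming proteins of the extracellular matrix, and their genes were followed in whole zebrafish (Danio rerio) hearts after freezing injury. The set holds every gene of the deposited table whose symbol is a collagen chain name ("col", type number, "a", chain number and at most 1 further letter), which gave 51 of 24782 genes. Of these, 23 had a mean of 1 FPKM or more over the 12 libraries and were tested among 13969 genes. They comprise 6 of 15 fibrillar chains, 6 of 10 network-forming chains, 3 of 8 fibril-associated chains and 8 of 18 chains of other kinds. FPKM counts fragments per kilobase of transcript, scaled to a library's mapped fragments, so levels of different genes can be set side by side. On either side of the limit of 1 FPKM stood col4a6, with a mean of 1.495 FPKM, and col2a1b, with 0.895 FPKM.

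The fish were 6 to 12 months old and were either yap +/+ (wild type) or yap -/- (mutant). Yap, encoded by yap1, is a transcriptional co-activator restrained by the Hippo kinases. Ventricles were touched with a steel probe chilled in liquid nitrogen (cryoinjury), or were exposed and left alone (sham), and hearts were taken 7 days later. Each of the 4 combinations of genotype and operation had 3 libraries of polyadenylated RNA. The mutation itself, any pooling of hearts and whether replicates were separate fish are not stated in the labels. The p-values therefore speak only of the spread among these libraries, which may be technical. Where a single heart is named below, a library is meant, whatever number of hearts it was made from.

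A collagen molecule is a triple helix of 3 chains, which may be alike or different. Fibrillar collagens (types I, V and XI here) pack into the fibrils that give scar and connective tissue their strength, and fibril-associated collagens (types XII and XVI) sit on fibril surfaces. Network collagens build sheets, as type IV does in every basement membrane, while type VI makes beaded filaments around cells. In the injured zebrafish heart, fibroblasts and epicardium-derived cells lay down a collagenous scar that is later removed as muscle regrows.

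The 6 wild-type libraries held 18.8 to 29.8 FPKM of yap1 and the 6 mutant libraries 10.1 to 14.4 FPKM, so the transcript was lower in every library labelled mutant and was not lost. Mutant sham 1 had the lowest value of 15 of the 23 tested collagen genes, and mutant sham 2 the highest of 13. Most injury differences given for collagen genes in mutants are therefore followed by their values without each of these 2 libraries. Summed FPKM per library ran from 668670 to 823107, and read totals were not used here. Mutant sham 1 had the most genes listed at 0, with 5138, against 3145 (wild-type cryoinjury 3) to 4347 (mutant sham 3) in the others.

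The collagen genes together made up a small and variable part of the mRNA. Their summed level was 318, 343 and 144 FPKM in wild-type sham hearts 1 to 3, and 1120, 576 and 1226 FPKM in wild-type cryoinjured hearts. All 3 injured wild-type hearts lay above all 3 sham hearts. In mutants the sums were 63.7, 1244 and 436 FPKM in sham hearts 1 to 3, against 763, 530.3 and 771 FPKM after cryoinjury. The sham mutants thus held both the lowest and the highest collagen level of the 12 libraries, on either side of all 3 injured mutants. As a share of all FPKM, collagen genes took 0.0386% ± 0.0184 (SD, n = 3) in wild-type sham, 0.139% ± 0.0495 in wild-type cryoinjured, 0.0827% ± 0.0883 in mutant sham and 0.0936% ± 0.0239 in mutant cryoinjured hearts. Type I alone made up 53.7% ± 8.65, 57.4% ± 3.59, 48.7% ± 20 and 58.1% ± 2.06 of collagen FPKM in these 4 groups. In whole-heart RNA, more cells of a type and more RNA per cell cannot be told apart.

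**Figure D1:**
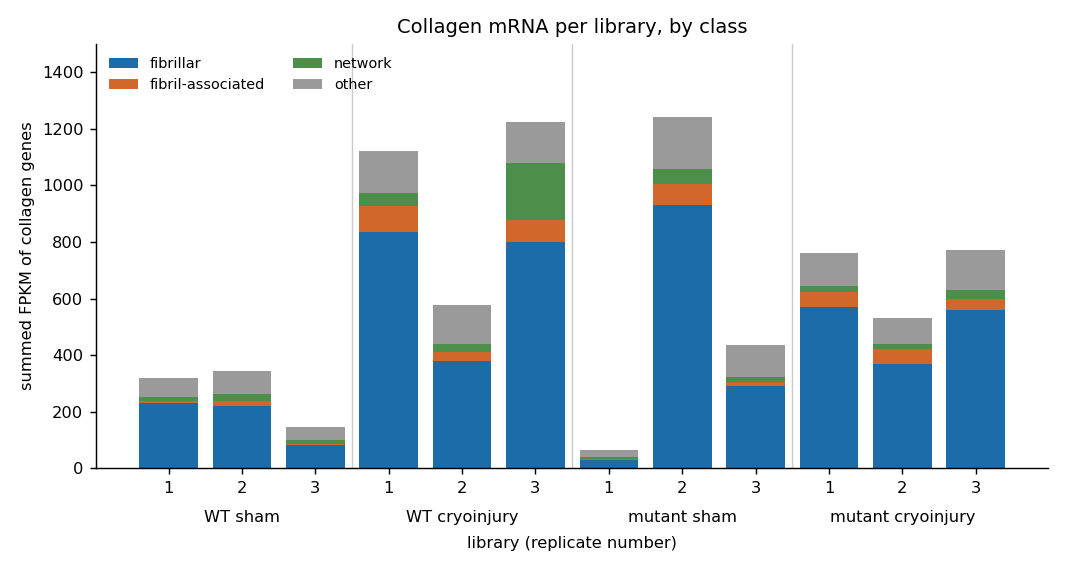
Summed FPKM of all 51 collagen genes in each of the 12 libraries (x axis, replicate numbers within the 4 groups), divided by class as coloured parts of each bar. The 3 wild-type cryoinjured bars stand above the 3 wild-type sham bars, and the mutant sham bars reach from 63.7 to 1244 FPKM.

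Markers of matrix-producing cells were higher after injury in wild type, as these sums were, but did not follow them heart by heart. The 9 fibroblast and epicardial markers (tcf21, tbx18, wt1a, wt1b, aldh1a2, pdgfra, pdgfrb, postnb and fn1b), none of them at 0 in any library, summed to 113 to 287 FPKM in wild-type sham and 587 to 730.5 FPKM in wild-type cryoinjured hearts. In mutants they summed to 149, 696 and 453 FPKM in sham hearts 1 to 3 and to 505 to 699 FPKM after injury. The 6 macrophage markers (mpeg1.1, mfap4, marco, csf1ra, havcr1 and lcp1) followed a like order, from 23.9 to 55.1 FPKM in wild-type sham and 98.1 to 150.1 FPKM in wild-type cryoinjured hearts, with 35.1, 349 and 65.3 FPKM in sham mutants 1 to 3 and 119 to 382 FPKM in injured mutants. The 7 cardiomyocyte markers, among them myl7 and vmhc, summed to 66690 to 77290 FPKM in wild-type sham and 48170 to 62730 FPKM in wild-type cryoinjured hearts, without overlap, and to 42070 to 56830 and 38390 to 62940 FPKM in mutants. The 5 smooth muscle markers, among them acta2 and tagln, summed to 561 to 679 FPKM in wild-type sham and 1006 to 1891 FPKM in wild-type cryoinjured hearts, and to 305 to 570.0 and 400.5 to 859 FPKM in mutants. These 2 sums are weighted to abundant genes and do not hold for every marker. By gene, 3 of 5 smooth muscle markers were higher after injury in wild type (74.3% of all tested genes), with a median log2 difference of 0.05. Of the 7 cardiomyocyte markers 2 were higher, and the median was -0.27. The part that any of these cell populations has in the collagen values was not tested.

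Type I collagen, the main fibrillar collagen of scar, is built in zebrafish from 3 chains. col1a1a (NCBI gene 337158) stood at 60.6, 59.0 and 19.9 FPKM in wild-type sham hearts 1 to 3, and at 238, 100.3 and 227 FPKM after cryoinjury. Mutant hearts had 3.42, 268 and 67.0 FPKM after sham surgery and 150.5, 101 and 139.5 FPKM after cryoinjury. The wild-type groups did not overlap, while the sham mutants enclosed the injured mutants. The log2 difference in FPKM + 1, cryoinjury minus sham, was 2.05 ± 1.1 (SE) in wild type and 1.58 ± 1.1 in mutants, with adjusted p of 0.618 and 1 from limma (Benjamini-Hochberg over all tested genes, n = 3 each). Without mutant sham 1 the value in mutants was -0.06, and without mutant sham 2 it was 2.90. Each limma SE and p, here and below, comes from 1 spread pooled over all 4 groups. The wide range of the mutant sham values therefore enters the wild-type SE and p as well.

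The other 2 chains of type I had nearly the same profile. col1a1b, the duplicate of the alpha 1 chain gene, was at 82.7, 68.4 and 26.04 FPKM in wild-type sham and 256, 122.6 and 269 FPKM in wild-type cryoinjured hearts. It was at 5.96, 294 and 99.3 FPKM in mutant sham and 167, 110.2 and 185 FPKM in mutant cryoinjured hearts. col1a2, for the alpha 2 chain, was at 56.3, 53.3 and 19.9 FPKM in wild-type sham and 191, 88.3 and 201 FPKM in wild-type cryoinjured hearts. Here too the injured wild-type hearts lay above all wild-type sham hearts. In mutants col1a2 was at 7.17, 232 and 78.9 FPKM after sham surgery and 126, 86.1 and 140.0 FPKM after cryoinjury. The injury difference was 1.93 ± 1.03 (log2, SE) for col1a1b and 1.91 ± 0.93 for col1a2 in wild type, and 1.36 ± 1.03 and 1.12 ± 0.93 in mutants. Without mutant sham 1 the mutant values of these 2 genes were -0.19 and -0.23, and without mutant sham 2 they were 2.52 and 2.18.

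Type V and type XI collagens co-assemble with type I or II and set how wide fibrils grow. col5a1, for a type V chain, had a mean of 7.07 ± 3.62 FPKM (SD, n = 3) in wild-type sham and 33.6 ± 13.5 FPKM in wild-type cryoinjured hearts, without overlap. Mutants had 19.8 ± 21.4 FPKM after sham surgery and 26.4 ± 4.53 FPKM after cryoinjury, with overlap. The injury difference was 2.13 ± 0.70 (log2, SE) for wild type and 1.03 ± 0.70 in mutants, or 1.90 in mutants without mutant sham 2 and 0.13 without mutant sham 1. The partner chain gene col5a2a was at 19.1 ± 7.21 and 63.1 ± 25.9 FPKM in wild-type sham and cryoinjured hearts and at 40.4 ± 39.3 and 64.8 ± 23.6 FPKM in mutant sham and cryoinjured hearts. Its injury difference was 1.67 ± 0.68 (log2, SE) for wild type and 1.19 ± 0.68 in mutants, where it was 0.28 without mutant sham 1 and 2.00 without mutant sham 2.

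The type XI gene col11a1b was low in uninjured wild-type hearts. It stood at 0.41, 1.01 and 0.46 FPKM in wild-type sham and 8.12, 2.32 and 5.41 FPKM in wild-type cryoinjured hearts. The mutant values were 0.42, 5.02 and 0.615 FPKM after sham surgery and 5.01, 2.75 and 1.92 FPKM after cryoinjury. All 6 injured hearts lay above the 5 sham hearts other than mutant sham 2, which matched the injured ones. The injury difference was 1.85 ± 0.53 (log2, SE) for wild type (adjusted p 0.421, limma) and 0.75 ± 0.53 in mutants (1.41 without mutant sham 2 and 0.37 without mutant sham 1).

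The fibril-associated type XII gene col12a1a had the widest injury difference of the collagen genes in each genotype. col12a1a (NCBI gene 100149543) was at 2.29, 9.48 and 2.59 FPKM in wild-type sham and 68.9, 21.3 and 58.8 FPKM in wild-type cryoinjured hearts. Among mutants it stood at 2.53, 48.0 and 5.35 FPKM after sham surgery and 39.9, 38.0 and 25.2 FPKM after cryoinjury. Leaving aside mutant sham 2, the highest sham value was below the lowest injured one. The difference was 3.18 ± 0.82 (log2, SE) for wild type (adjusted p 0.421) and 1.75 ± 0.82 in mutants (adjusted p 1, limma, n = 3 each). In mutants it was 0.98 without mutant sham 1 and 2.87 without mutant sham 2.

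Its paralog, listed as col12a1 and named col12a1b in the RefSeq table (NCBI gene 562946), was lower in level and alike in pattern. It stood at 0.35, 1.42 and 0.09 FPKM in wild-type sham and 10.9, 3.32 and 10.6 FPKM in wild-type cryoinjured hearts. For mutants the levels were 0.07, 12.1 and 0.465 FPKM after sham surgery and 7.25, 7.33 and 6.97 FPKM after cryoinjury. The 3 injured mutants lay close together, between the sham extremes. The difference was 2.46 ± 0.76 (log2, SE) for wild type and 1.58 ± 0.76 in mutants, the latter 2.71 without mutant sham 2 and 0.90 without mutant sham 1.

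The third fibril-associated gene, col16a1, differed less. It was at 5.15, 4.87 and 1.53 FPKM in wild-type sham and 10.2, 6.75 and 8.30 FPKM in wild-type cryoinjured hearts. Mutants had 2.5, 13.4 and 6.46 FPKM after sham surgery and 6.64, 7.95 and 5.69 FPKM after cryoinjury. The wild-type groups did not overlap and the mutant groups did. The injury difference was 1.05 ± 0.46 (log2, SE) for wild type and 0.09 ± 0.46 in mutants (0.59 without mutant sham 2 and -0.43 without mutant sham 1).

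**Figure D2:**
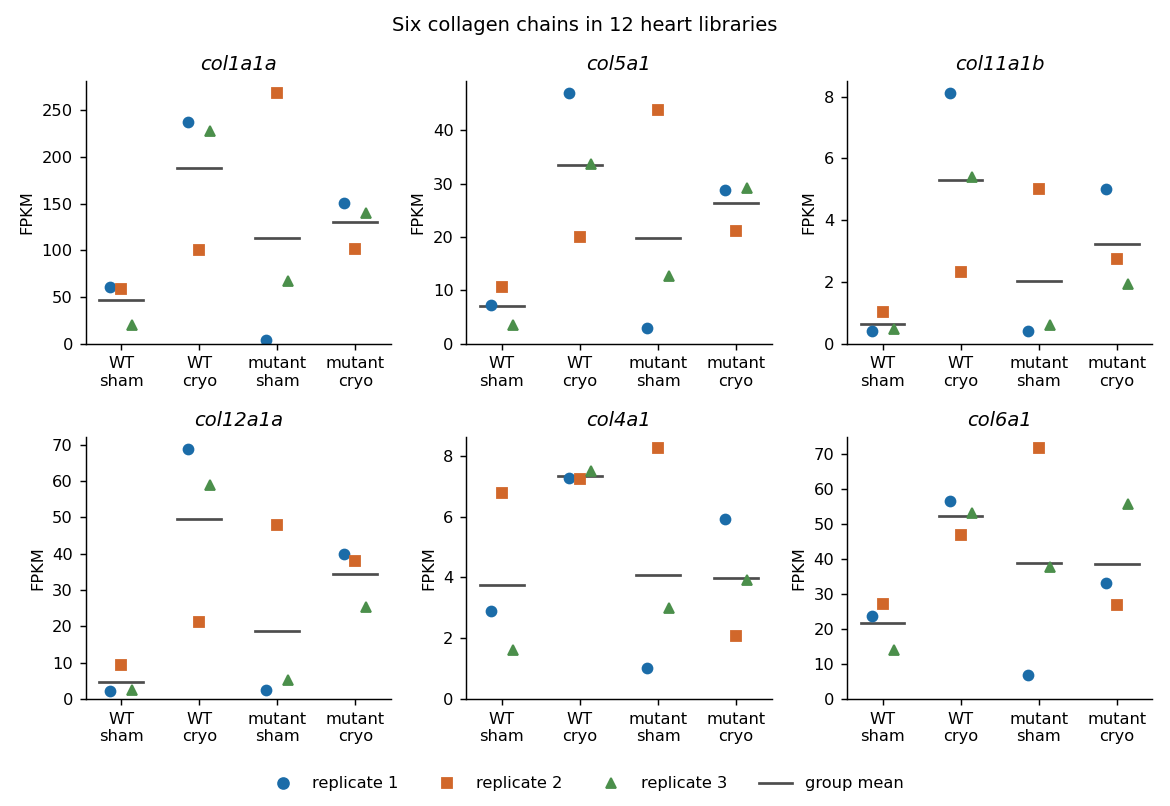
FPKM (y axis, each panel with its own scale from 0) of 6 collagen genes in the 4 groups (x axis), with each library as a point and the group mean as a line. In all 6 panels the 3 wild-type cryoinjured points lie above the wild-type sham points, mutant sham 2 is the highest mutant sham point and mutant sham 1 the lowest.

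Among network collagens, the basement membrane pair col4a1 and col4a2 is encoded side by side in the RefSeq gene order, with 0 protein-coding genes between them. col4a1 was at 2.89, 6.78 and 1.60 FPKM in wild-type sham and 7.27, 7.24 and 7.51 FPKM in wild-type cryoinjured hearts. Mutant hearts had 1.02, 8.27 and 2.98 FPKM after sham surgery and 5.93, 2.06 and 3.93 FPKM after cryoinjury. The injured wild-type hearts were tightly grouped and lay above every wild-type sham and every injured mutant heart. col4a2 was at 7.12, 13.1 and 5.59 FPKM in wild-type sham and 17.9, 13.2 and 15.8 FPKM in wild-type cryoinjured hearts, the lowest injured value just above the highest sham value. Mutants had 2.09, 28.9 and 6.76 FPKM of col4a2 in sham and 10.3, 7.58 and 13 FPKM in cryoinjured hearts. The injury differences of col4a1 and col4a2 were 0.96 ± 0.52 and 0.86 ± 0.62 (log2, SE) for wild type, and 0.16 ± 0.52 and 0.31 ± 0.62 in mutants. The mutant values turned to -0.37 and -0.46 without mutant sham 1, and were 0.73 and 1.18 without mutant sham 2. col4a6, another type IV chain, had a difference of -0.01 ± 0.23 in both genotypes.

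In the short-chain network collagens single libraries stood far apart. Type VIII is known from vessel walls and valves. Its gene col8a1b was at 0.61, 1.78 and 3.97 FPKM in wild-type sham and 20.5, 4.32 and 6.12 FPKM in wild-type cryoinjured hearts. Among mutants it was listed at 0 in sham 1 and in cryoinjury 1, and stood at 5.66 and 6.98 FPKM in the other sham hearts and 4.05 and 8.98 FPKM in the other injured ones. The injury difference was 1.73 ± 0.93 (log2, SE) for wild type and -0.03 ± 0.93 in mutants, where it was -0.98 without mutant sham 1 and 0.39 without mutant sham 2.

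Type X collagen, known from maturing cartilage and, in fish, from bone-forming cells, was abundant in 1 heart. col10a1b was at 142 FPKM in wild-type cryoinjury 3, while the other injured wild-type hearts had 0.07 and 1.15 FPKM and the wild-type sham hearts 0.11, 0.11 and 0.04 FPKM. The mutants lay between these, at 1.18, 6.34 and 1.26 FPKM after sham surgery and 2.06, 1.23 and 4.35 FPKM after cryoinjury. col10a1a was at 28.1 FPKM in wild-type cryoinjury 3 and at 0 to 0.225 FPKM in the other 11 libraries, so it passed the limit of 1 FPKM through that library. The wild-type injury difference of col10a1b was 2.67 ± 1.36 (log2, SE), and 0.48 without wild-type cryoinjury 3. The fibrillar gene col5a2b, below the limit, was at 2.3 FPKM in the same library and at 0.08 FPKM or less elsewhere.

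Markers of bone, cartilage and skin were mixed in that library. Of the 5 bone and scale markers, bglap was at 0 and sp7, runx2b, entpd5a and spp1 were at 0.18, 0.92, 0.23 and 0.90 FPKM. The 7 measured cartilage markers summed to 37.0 FPKM, against 39.8 FPKM in mutant sham 2 and 35.7 FPKM in mutant cryoinjury 3. Most of each sum was hapln1a, at 30.9, 31.6 and 26.5 FPKM in these 3 libraries. The skin keratin gene krt5 stood at 74.1 FPKM in wild-type cryoinjury 3 and at 4.53 FPKM or less in the other libraries. The 5 skin markers summed to 255 FPKM there and 259 FPKM in mutant sham 3, of which krt4 made up 174.5 and 251 FPKM. Outside these lists, scpp7 stood at 90.4 FPKM in wild-type cryoinjury 3 against 0.215 FPKM in the next library. The keratin genes krt97 (13.3 against 0.33 FPKM) and krt17 (5.54 against 0.14 FPKM) were likewise high there. These 3 genes were picked after their values had been seen. The part that such tissues have in the type X values of that library was not tested.

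**Figure D3:**
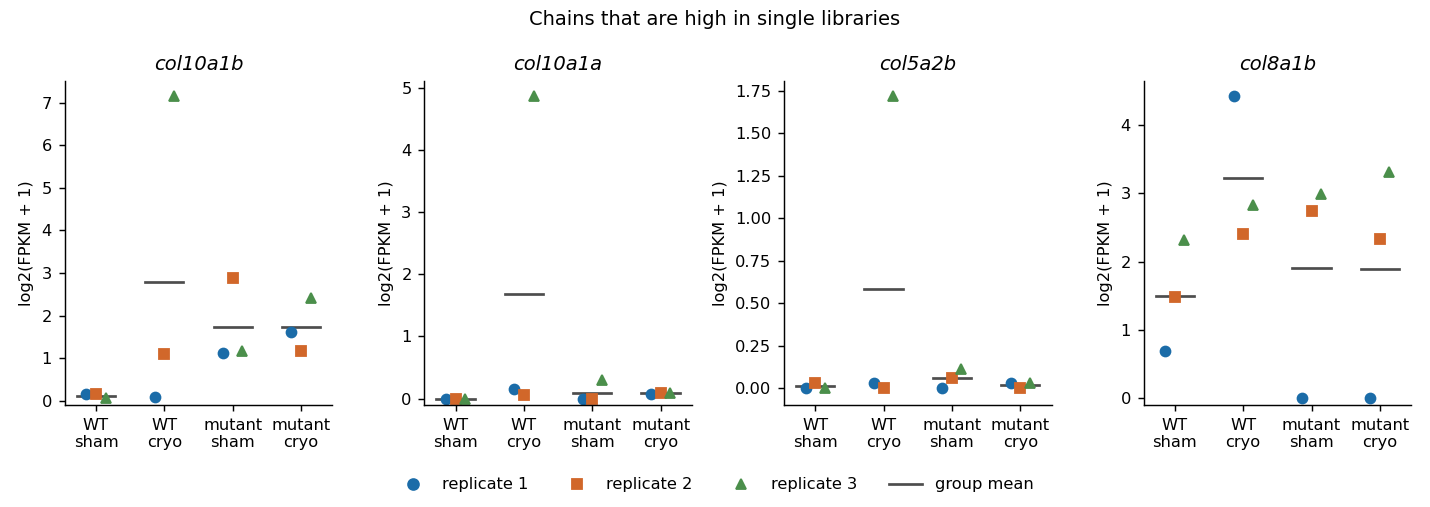
Level as log2(FPKM + 1) (y axis) of 4 collagen genes in the 4 groups (x axis), with each library as a point and the group mean as a line. col10a1b, col10a1a and col5a2b are high in wild-type cryoinjury 3, and col8a1b is at 0 in replicate 1 of both mutant groups.

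Type VI collagen is built mainly from 3 chains into filaments that link cells to the matrix. col6a1 was at 23.6, 27.2 and 14.0 FPKM in wild-type sham and 56.6, 46.8 and 53.2 FPKM in wild-type cryoinjured hearts, without overlap. In mutants it was at 6.95, 71.8 and 37.6 FPKM after sham surgery and 33.1, 26.9 and 55.7 FPKM after cryoinjury. col6a2, which has 1 protein-coding gene between itself and col6a1 in the RefSeq order, was at 16.3, 21.5 and 9.54 FPKM in wild-type sham and 37.8, 35.4 and 38.8 FPKM in wild-type cryoinjured hearts. These injured wild-type values also lay above those of injured mutants, at 35.0, 19.8 and 27.6 FPKM, though narrowly, the nearest being 35.38 and 35.05 FPKM. Sham mutants had 4.66, 44.5 and 28.4 FPKM of col6a2. The injury differences were 1.28 ± 0.62 (log2, SE) for col6a1, 1.26 ± 0.60 for col6a2 and 1.13 ± 0.59 for col6a3 in wild type, and 0.42 ± 0.62, 0.50 ± 0.60 and 0.59 ± 0.59 in mutants. Leaving out mutant sham 1 turned the mutant values to -0.49, -0.40 and -0.25, and leaving out mutant sham 2 gave 1.11, 1.11 and 1.26.

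The gene listed as col6a6, named col6a4a in the RefSeq table, was steadier than the other type VI genes. It stood at 9.94, 10.5 and 4.87 FPKM in wild-type sham and 9.88, 12.6 and 12.8 FPKM in wild-type cryoinjured hearts, and these groups overlapped. The mutant values were 3.37, 11.6 and 8.64 FPKM after sham surgery and 11.5, 12.4 and 11.1 FPKM after cryoinjury. Its injury difference was 0.49 ± 0.36 (log2, SE) for wild type and 0.65 ± 0.36 in mutants, where it was 0.20 without mutant sham 1 and 0.96 without mutant sham 2.

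Types XV and XVIII are basement membrane collagens that carry sugar chains, and their ends can be released as anti-angiogenic fragments, known in mammals as restin and endostatin. col15a1a was at 5.34, 5.28 and 1.68 FPKM in wild-type sham and 14.0, 10.5 and 10.1 FPKM in wild-type cryoinjured hearts. Mutants had 1.01, 10.8 and 6.43 FPKM after sham surgery and 10.9, 8.65 and 11.1 FPKM after cryoinjury. Mutant sham 2 was the only sham heart at the injured level. The injury difference was 1.39 ± 0.54 (log2, SE) for wild type and 1.00 ± 0.54 in mutants, where it was 0.26 without mutant sham 1 and 1.53 without mutant sham 2.

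Of the genes listed as col18a1, the one named col18a1a in the RefSeq table had the lowest unadjusted p of the 23 genes for genotype in sham hearts. It was at 0.61, 1.26 and 7.14 FPKM in wild-type sham and 3.71, 10.3 and 7.96 FPKM in wild-type cryoinjured hearts. Mutants had 3.80, 13.5 and 11 FPKM after sham surgery and 7.47, 6.50 and 9.87 FPKM after cryoinjury. Wild-type sham 3, the lowest wild-type sham library for the 3 type I chains, had the highest of the wild-type sham values here, as it did for col8a1b. The genotype difference of col18a1a in sham hearts, mutant minus wild type, was 1.61 ± 0.58 (log2, SE, unadjusted p 0.0172, adjusted p 0.796, limma), and 2.304 without wild-type sham 3. The sham groups overlapped, with mutant sham 1 (3.80 FPKM) below wild-type sham 3 (7.14 FPKM). The other copy, named col18a1b, was at 4.83 ± 2.54 and 10.2 ± 1.11 FPKM in wild-type sham and cryoinjured hearts (SD, n = 3 each) and at 9.31 ± 7.46 and 10.4 ± 3.67 FPKM in mutants. The transmembrane col13a1 ran from 1.07 to 2.78 FPKM over all libraries.

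Cryoinjury against sham in wild type asks how the collagen genes respond with Yap intact. The median log2 difference of the 23 genes was 1.39, against 0.19 over all 13969 tested genes, and 22 of 23 were above 0 (74.3% of all tested genes were). By class the median was 2.46 for the 3 fibril-associated, 1.92 for the 6 fibrillar, 1.33 for the 6 network and 1.19 for the 8 other genes. Without wild-type cryoinjury 3, the library high in type X, the network median was 0.66. In 18 of 23 genes all injured hearts lay above all sham hearts, beside 24.3% of tested genes, and 0 lay wholly below, beside 3.44%. One of the 18 is col10a1a, which passed the filter through wild-type cryoinjury 3, and leaving that gene aside the count was 17 of 22. Without wild-type cryoinjury 3 the count over the 23 genes was 18, beside 29.8%, and without wild-type sham 3 it was 19, beside 30.2%. Both counts include col10a1a, which was at 0 in wild-type sham and at 0.11 and 0.04 FPKM in wild-type cryoinjury 1 and 2. At a difference of 1 (log2) or more there were 18 of 23, beside 4.09%. These include col10a1a and col10a1b, whose differences rest on wild-type cryoinjury 3. With limma and adjustment over all genes 0 collagen genes passed (0% of all tested genes did), while 8 of 23 stood higher at an unadjusted p under 0.05, beside 7.85%. The spread in that fit is pooled over all 4 groups. Fitted on only the groups compared, without the mutant libraries, 0 collagen genes passed, beside 0.0574% of tested genes. With array weights, which give less weight to discordant libraries, 6 collagen genes rose at adjusted p under 0.05 (col5a2a, col12a1a, col5a1, col15a1a, col12a1 and col11a1b), beside 2.93% of tested genes.

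The same comparison in mutants had a lower median and no separated gene. The median difference was 0.51, against 0.01 over all tested genes, and 19 of 23 genes were above 0 (52.5% of all). By class it was 1.58 for fibril-associated, 1.15 for fibrillar, 0.00 for network and 0.50 for other genes. Without mutant sham 1 these medians were 0.90, 0.03, -0.33 and -0.29, and without mutant sham 2 they were 2.71, 2.09, 0.48 and 1.09. There were 0 of 23 genes without overlap, beside 2.05% of tested genes, and 7 of 23 with a difference of 1 or more, beside 1.93%. Without mutant sham 1 the highest difference of the 23 genes was that of col12a1a, at 0.98, so none reached 1. With limma 0 passed after adjustment (0% of all tested genes did) and 0 of 23 had an unadjusted p under 0.05 and a higher value, beside 1.99%. The count without overlap was 12 of 23 without mutant sham 2, beside 16.7%, and 0 of 23 without mutant sham 1, beside 3.87%. Leaving out mutant sham 2 gave a median of 1.11, and leaving out mutant sham 1 gave -0.19.

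**Figure D4:**
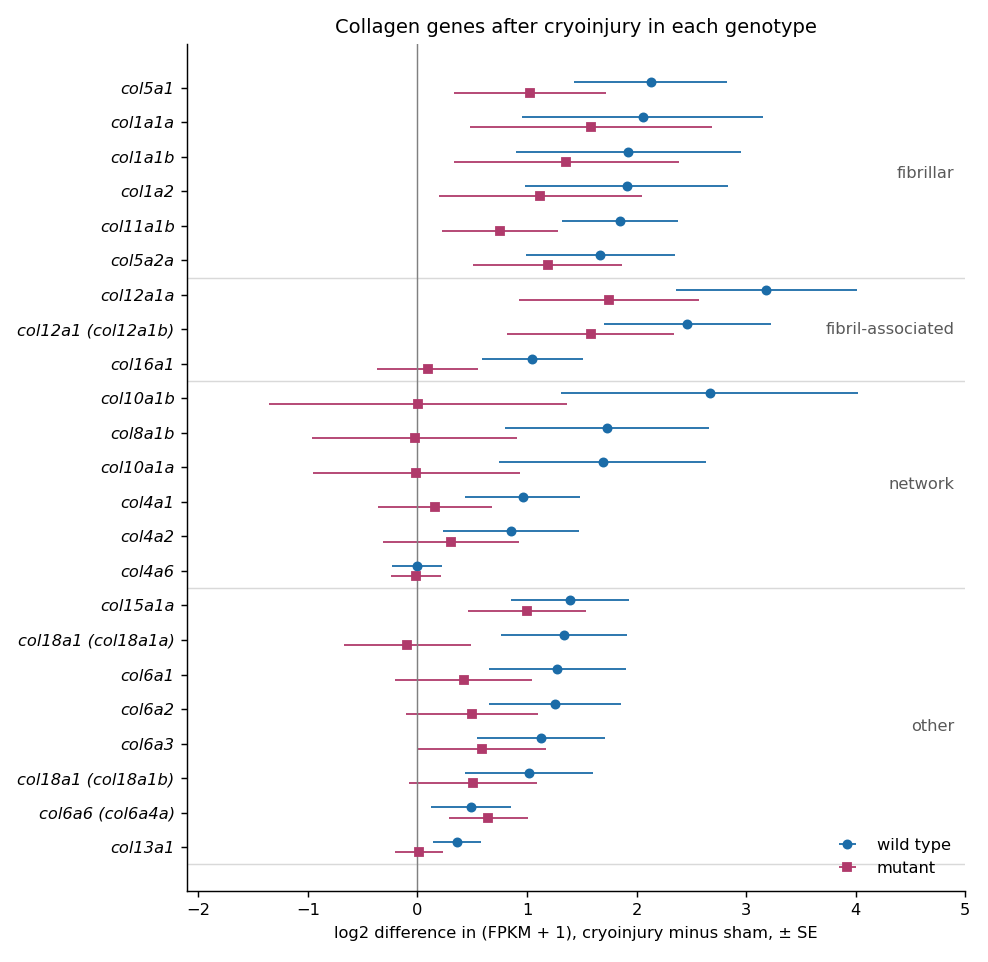
Log2 difference in FPKM + 1 between cryoinjured and sham hearts (x axis, points, with bars of 1 SE from limma) of the 23 tested collagen genes, ordered by class and by the wild-type value (names in parentheses are those of the RefSeq table). The wild-type point lies right of the mutant point for every gene but col6a6. Without mutant sham 2 this order turned for some genes and held for others. The mutant values of col1a1a, col1a1b and col1a2 were then 2.90, 2.52 and 2.18, above those of wild type (2.05, 1.93 and 1.91). That of col12a1a was 2.87, below 3.18 in wild type. Of all tested genes 28.3% had the larger difference in mutants. The lowest unadjusted p of the 23 for the difference between genotypes was 0.107 (limma).

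Averaged over both genotypes, 6 injured hearts were set against 6 sham hearts. The median difference was 0.86, against 0.10 over all tested genes, with 22 of 23 above 0 (68.0% of all) and 10 of 23 at 1 or more, beside 2.22%. Those at 1 or more include col10a1b, whose difference rests on wild-type cryoinjury 3. Of the 23 genes 10 stood higher at an unadjusted p under 0.05, beside 8.24%, and 0 passed after adjustment, beside 0.0644%. The lowest adjusted p were those of col12a1a at 0.166 (2.47 ± 0.58, log2, SE), col12a1 at 0.238 (2.02 ± 0.54) and col11a1b at 0.273 (1.30 ± 0.37). Without mutant sham 2, which is 1 of the 12 libraries, 6 genes passed, the same 6 as with array weights in wild type, beside 3.09% of tested genes. With array weights 4 passed (col12a1a, col5a1, col12a1 and col11a1b), beside 2.08%. Without both mutant sham 1 and mutant sham 2 only col12a1 passed, beside 0.208%. Without mutant sham 1 alone 0 collagen genes passed, beside 0.0355%, and 0 did so without any other single library but mutant sham 2. With the other pseudocount, both filters, all 3 rescalings and the replicate block 0 passed as well.

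Mutant against wild type in cryoinjured hearts asks whether injured hearts hold less collagen mRNA when Yap is impaired. The median difference, mutant minus wild type, was -0.38 (-0.11 over all tested genes), and 2 of 23 genes were above 0, col5a2a and col18a1a (35.1% of all tested genes were above 0). All injured mutants lay below all injured wild-type hearts for col4a1, col4a2 and col6a2, that is for 3 of 23, beside 12.6% of tested genes, and 0 had mutants wholly above, beside 3.06%. The nearest wild-type and mutant values were 13.21 and 13.03 FPKM for col4a2, and 35.38 and 35.05 FPKM for col6a2. At an unadjusted p under 0.05 there were 0 higher, beside 1.22%, and 0 lower, beside 3.81%. The 3 genes with the lowest p were col10a1a (-1.60 ± 0.95, log2, SE), col4a1 (-0.82 ± 0.52) and col8a1b (-1.34 ± 0.93), each with an adjusted p of 0.873 (limma). The col10a1a value rests on wild-type cryoinjury 3. These comparisons share the injured libraries with those of injury.

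In sham hearts the collagen median was 0.37 higher in mutants (0.07 over all tested genes), with the libraries on both sides of wild type. Of 23 genes 19 were above 0, beside 58.7%, 3 differed by 1 or more, beside 1.83%, and 1, col18a1a, stood higher at an unadjusted p under 0.05, beside 4.04%. Leaving out mutant sham 1 gave a median of 1.28, and leaving out mutant sham 2 gave -0.27. Only col10a1b had no overlap, at 1.18 to 6.34 FPKM in mutants and 0.04 to 0.11 FPKM in wild type, that is 1 of 23, beside 7.01%, and its difference was 1.61 ± 1.36 (log2, SE, adjusted p 0.832, limma). In 0 genes did mutants lie wholly below, beside 3.17%. Without mutant sham 1 the count of higher genes was 14 of 23, beside 25.6%. Over both injuries together 0 collagen genes passed after adjustment, beside 0.00716%, and 0 had an unadjusted p under 0.05 in the higher direction, beside 4.6%, or the lower, beside 5.06%. There the median was 0.01 (-0.002 with a pseudocount of 0.1 and -0.06 with TPM rescaling), 12 of 23 were above 0, beside 46.1%, 0 of 23 genes lacked overlap in the higher direction, beside 0.243%, and 0 in the lower, beside 0.43%.

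The test of the difference itself, injury response in mutants minus that in wild type, called 0 collagen genes and 0% of all tested genes. The median was -0.79 (-0.17 over all tested genes), and 1 of 23 genes was above 0, beside 28.3%. It was -0.15 without mutant sham 2 and -1.56 without mutant sham 1. The lowest unadjusted p was that of col18a1a, at 0.107 with a difference of -1.43 ± 0.82 (log2, SE). An unadjusted p under 0.05 was reached by 0 genes in the higher direction, beside 0.336%, and by 0 in the lower, beside 1.6%.

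The chains of type I kept similar proportions except in mutant sham 1. The ratio of col1a2 to col1a1a was between 0.803 and 1.18 in the other 11 libraries and 2.096 in mutant sham 1. col1a1b over col1a1a ran from 1.08 to 1.48 in the other 11 and was 1.74 there. For col5a1 over col1a1a the range was 0.119 to 0.21, against 0.836, and for col6a1 over col1a1a it was 0.220 to 0.706, against 2.03. In that library, then, type I mRNA was low relative to type V and type VI mRNA as well as low in level. Mutant sham 1 also had the most genes listed at 0 (5138). The part that depth or RNA quality has in these ratios was not tested. Within type VI, col6a2 over col6a1 was 0.670 in mutant sham 1 and between 0.495 and 1.06 in the others. The ratio of col6a3 to col6a1 was lowest in mutant sham 1, at 0.1252, though close to the lowest of the others (0.1254 to 0.2562).

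**Figure D5:**
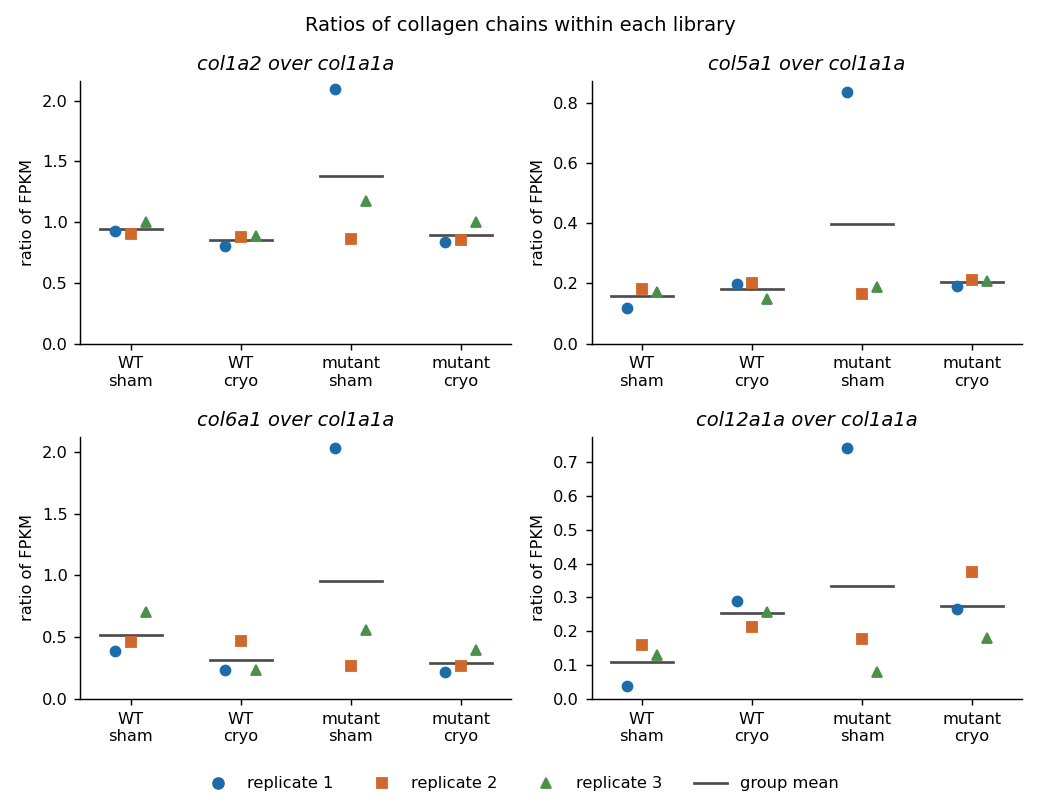
Ratio of FPKM of 2 collagen genes within each library (y axis, linear from 0), by group (x axis), with each library as a point and the group mean as a line. Mutant sham 1 has the highest ratio in all 4 panels, at 2.096, 0.836, 2.03 and 0.740.

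Some ratios had no overlap between wild-type sham and wild-type cryoinjured hearts, and others did overlap. col1a2 over col1a1a was 0.9036 to 1.002 in wild-type sham and 0.8034 to 0.8835 in wild-type cryoinjured hearts, without overlap. The mutant groups overlapped in that ratio. col5a2a over col5a1 was 2.86 ± 0.486 (SD, n = 3, range 2.44 to 3.39) in wild-type sham and 1.90 ± 0.208 (range 1.67 to 2.07) in wild-type cryoinjured hearts, without overlap. Among mutants it was 2.24 ± 0.291 and 2.42 ± 0.608, with overlap. col12a1a over col1a1a was 0.110 ± 0.0640 in wild-type sham (range 0.0378 to 0.161) and 0.253 ± 0.0391 (range 0.212 to 0.290) in wild-type cryoinjured hearts, again without overlap. In mutants it was 0.0798 to 0.740 in sham and 0.181 to 0.376 in cryoinjured hearts. col12a1a over col12a1 was 6.54 to 28.8 in wild-type sham and 5.57 to 6.40 in wild-type cryoinjured hearts, without overlap. The value of 28.8 rests on col12a1 at 0.09 FPKM in wild-type sham 3. The wild-type groups overlapped for col1a1b, col5a1 and col6a1 over col1a1a and for col4a2 over col4a1. They also overlapped for col6a2 and col6a3 over col6a1 and for col18a1a over col18a1b. The ratios were not tested, and the share of other gene pairs without overlap was not computed.

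Of the collagen genes, 28 lay below a mean of 1 FPKM. Among all 51, 22 had all injured wild-type hearts above all sham hearts, beside 17.7% of the genes in the file, 18 of them among the tested genes and the others being col27a1b, col11a1a, col5a3a and col7a1. In mutants only col11a1a did so, that is 1 of 51, beside 2.54%. This second type XI alpha 1 gene was also the only collagen with all 6 injured hearts above all 6 sham hearts, beside 0.343% of genes. It stood at 0.02, 0.07 and 0.03 FPKM in wild-type sham and 1.93, 0.67 and 0.66 FPKM in wild-type cryoinjured hearts. Among mutants it was listed at 0 in sham 1 and sham 3, at 0.31 FPKM in sham 2, and at 1.34, 0.94 and 0.48 FPKM after cryoinjury. Fitted without a filter, its difference over both genotypes was 0.87 ± 0.16 (log2, SE, adjusted p 0.171 over 24782 genes, limma), and it was singled out after its values had been seen. Of the type II genes, known from cartilage, col2a1a was at 0 to 0.12 FPKM and col2a1b at 0.53 to 1.38 FPKM. Of the type IX genes, col9a1a was at 0 to 0.05 FPKM, col9a2 at 0 to 0.14 FPKM and col9a3 at 0.03 to 0.27 FPKM.

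Genes that act on collagen were followed in lists drawn up by role. Enzymes and chaperones that modify and fold collagen chains had 23 tested genes, of which 9 stood higher at an unadjusted p under 0.05 in wild type (7.85% of all tested genes) and 0 in mutants (1.99%), and 0 lower in either (0.816% and 1.12%). The list's median difference in mutants was 0.14, or 0.01 without mutant sham 1 and 0.29 without mutant sham 2. The immunophilin gene fkbp10b, whose product chaperones procollagen in the endoplasmic reticulum, was at 1.95 ± 0.307 FPKM in wild-type sham and 8.76 ± 1.62 FPKM in wild-type cryoinjured hearts (SD, n = 3 each). Mutants had 4.70 ± 4.35 and 6.12 ± 0.786 FPKM. The related gene fkbp14 was at 3.18 ± 0.435 and 7.37 ± 0.657 FPKM in wild-type sham and cryoinjured hearts. plod2, a lysyl hydroxylase that prepares cross-links, was at 8.11 ± 5.20 and 30.4 ± 13.4 FPKM. ppib, a prolyl isomerase, had 227 ± 37.8 and 340.1 ± 52.5 FPKM.

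Enzymes that cleave and cross-link procollagen had 11 tested genes. Of these, 9 were higher at an unadjusted p under 0.05 in wild type (7.85% of all tested genes) and 1 in mutants (1.99%), and 0 lower in either (0.816% and 1.12%). loxl2a, a lysyl oxidase, was at 2.98 ± 3.70 FPKM in wild-type sham and 14.99 ± 7.70 FPKM in wild-type cryoinjured hearts, and at 3.63 ± 3.62 and 15.9 ± 6.82 FPKM in mutants. Its difference was alike in size in both genotypes, at 2.29 ± 0.73 and 2.16 ± 0.73 (log2, SE). pcolcea and pcolce2b enhance the trimming of procollagen ends by bmp1a. pcolce2b was at 6.37 ± 1.53 and 62.5 ± 33.0 FPKM in wild type and 32.8 ± 34.3 and 52.9 ± 33.9 FPKM in mutants. pcolcea was at 42.0 ± 11.6 and 108 ± 25.3 FPKM in wild type, and bmp1a at 3.52 ± 1.46 and 9.47 ± 2.01 FPKM. The list's median mutant difference was 0.42, or 0.04 without mutant sham 1 and 0.86 without mutant sham 2. After adjustment over all genes 0 of these passed, the lowest adjusted p over both genotypes being 0.166 for loxl2a (limma).

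Genes for the breakdown of collagen and its inhibitors had 11 tested members. Of these, 6 were higher at an unadjusted p under 0.05 in wild type (7.85% of all tested genes) and 2 in mutants (1.99%), and 0 lower (0.816% and 1.12%). The median mutant difference of this list was 0.77 (0.32 without mutant sham 1 and 1.26 without mutant sham 2). The nearest to the threshold was timp2b, a metalloproteinase inhibitor, at 2.34 ± 0.39 (log2, SE, adjusted p 0.0647 over both genotypes, limma). mmp13b, a collagenase, was at 0.937 ± 0.413 and 2.25 ± 0.855 FPKM in wild-type sham and cryoinjured hearts and 0.875 ± 0.365 and 2.40 ± 0.691 FPKM in mutants. mmp14b, a membrane-bound collagenase, was at 4.79 ± 2.31 and 16.7 ± 3.98 FPKM in wild type, and the collagen-degrading cathepsin gene ctsk at 44.5 ± 9.50 and 80.5 ± 29.7 FPKM. Of 8 tested fibril-binding genes 4 stood higher in wild type (beside 7.85%) and 0 in mutants (beside 1.99%) at that level, among them bgnb (biglycan) at 0.71 ± 0.485 and 2.70 ± 0.832 FPKM in wild type. postnb (periostin), postna and dcn (decorin) had differences of 1.95 ± 0.69, 1.14 ± 0.45 and 0.94 ± 0.39 (log2, SE) over both genotypes. In mutants the median of the fibril-binding list was 0.63, turning to -0.15 without mutant sham 1 and 1.34 without mutant sham 2.

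Partners of type IV collagen in basement membranes had 11 tested genes, 5 higher at an unadjusted p under 0.05 in wild type (7.85% of all tested genes) and 0 in mutants (1.99%). The laminin chain genes lama5, lamb1a, lamc1 and lama4 had wild-type differences of 1.03 ± 0.32, 1.24 ± 0.46, 1.13 ± 0.43 and 0.68 ± 0.29 (log2, SE), and mutant differences of 0.51 ± 0.32, 0.77 ± 0.46, 0.56 ± 0.43 and 0.32 ± 0.29. Receptors for collagen had 7 tested genes, 1 of them higher in wild type (beside 7.85%) and 0 in mutants (beside 1.99%) at that level. ddr2a, a receptor kinase that binds fibrillar collagen, was at 0.983 ± 0.514 and 2.52 ± 0.618 FPKM in wild-type sham and cryoinjured hearts, and itga1, itgb1b.1 and ddr1 had wild-type differences of 0.85 ± 0.44, 0.46 ± 0.33 and 0.43 ± 0.39 (log2, SE). The median mutant difference of the basement membrane genes was 0.20 (0.02 without mutant sham 1 and 0.56 without mutant sham 2), and that of the receptors was 0.31 (-0.04 and 0.51).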

How the data were processed

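The authors deposited a table of FPKM values by gene and library. The submitters' processing notes name Bowtie2, HISAT and the build GRCz11, without versions or roles. Column names tied 13 columns to samples, and 1 further column was not used. The 2 columns of mutant sham 3 differed by a median of 0.0165 (log2), against 0.212 to 0.673 between replicates, and were averaged. Depth is not recorded in the values, so no counting interval is given.

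Genes with a mean FPKM of 1 or more (13969) were put on a log2 scale after adding a pseudocount of 1, so fold changes of weakly expressed genes come out too small, and tested with limma 3.58.1 in R 4.3.3 (4 group means, all 12 samples, intensity trend, two-sided, Benjamini-Hochberg at 0.05). On simulated data for injury in wild type (13969 genes), limma called 34.6% of 2-fold changes, 80.6% of 4-fold changes and 0.0675% of unchanged genes. In the measured libraries 571 genes were higher by 1 (log2) or more in that comparison, and 0 were called. There col1a1a, at 2.05 ± 1.1 (log2, SE), had an adjusted p of 0.618 (limma). The simulated rates therefore cannot be read as the chance of calling a collagen gene in these libraries. With 3 against 3 libraries an exact test cannot go below 0.10.

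The members and lists were chosen with earlier results of these data known. Values in every sample are given for the 3 highest members of each class and the 3 with the lowest p in each contrast, and up to 4 genes of each list with the lowest p over both genotypes are named. Current names came from a RefSeq table of the assembly GRCz12tu, which matched all 51 genes. Near-identical paralogs may share reads in ways not stated. Alternatives were a pseudocount of 0.1, no filter or a filter at 5 FPKM, 3 rescalings, array weights, only the groups compared, a replicate block and leaving out libraries. Same-numbered samples were not paired (correlations of deviations from -0.205 to 0.326 over 18 pairs). No sequences are shown and the planned protein and promoter features were not analysed here.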

Additional observations from a re-analysis of the deposited data

How the results depend on the processing

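Collagen medians kept their sign under the other pseudocount, both filters, all 3 rescalings, array weights and the replicate block in every contrast but genotype over both injuries, which lay near 0 and turned negative with a pseudocount of 0.1 and with TPM rescaling. Leaving out single libraries gave medians of -0.19 to 1.11 for injury in mutants, -0.27 to 1.28 for genotype in sham hearts and -1.56 to -0.15 for the difference of injury responses, in each case with mutant sham 1 and mutant sham 2 at the ends. The number of collagen genes without overlap ran from 0 to 12 (injury in mutants) and from 1 to 14 (genotype in sham hearts) without mutant sham 1 or 2, alternatives chosen after seeing the data. col12a1a in sham hearts ran from -0.074 (without mutant sham 2) to 1.82. The causes were not tested.

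Counts of called genes over the whole table moved as follows. For injury in wild type (0), 8 were called with only the groups compared, 409 with array weights, 34 without mutant sham 1 and 2, and 0 to 18 without single libraries. For injury in mutants (0), 3 were called with no filter, 1 with median-of-ratios rescaling, 1 with quantile normalization and 0 to 3 without single libraries. For injury over both genotypes (9), 3 were called with a filter at 5, 19 with median-of-ratios rescaling, 21 with quantile normalization, 290 with array weights, 29 without mutant sham 1 and 2, and 1 to 428 without single libraries. For genotype over both injuries (1), 3 were called with no filter, 0 with median-of-ratios and 0 with TPM rescaling, 3 with quantile normalization, 15 with array weights, 0 without mutant sham 1 and 2, and 0 to 5 without single libraries. For genotype in sham hearts (0) the range without single libraries was 0 to 2. For genotype in cryoinjured hearts (0), 1 was called with no filter. For the difference of responses (0), 1 was called with no filter and 0 to 1 without single libraries. With the replicate block, which pairs samples by number alone, 3 genes were called for injury and 0 for genotype over both groups. Depth limits all values near 0.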

Other observations

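In wild-type cryoinjury 3, 17 genes stood at 5 FPKM or more and at least 5 times above every other library, against 0 to 8 genes in each of the other libraries. The highest after col10a1b were scpp7, a secretory calcium-binding phosphoprotein gene, at 90.4 FPKM against 0.215 FPKM in the next library, and the keratin gene krt5 at 74.1 against 4.53 FPKM. bgna, a biglycan gene, was also among them, at 9.04 against 0.295 FPKM. These genes were picked after their values had been seen.

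Deviations from the group means over the 12 libraries were used to rank all 13969 tested genes by their likeness to col1a1a, as a description. Among the 5 most alike were col1a2 (r = 0.997), col1a1b (0.996), kcnj10a (0.988) and ncam1a (0.986), and without mutant sham 1 and 2 these values were 0.989, 0.983, 0.909 and 0.940. All genes of a library share its depth and scaling. Among collagen genes col10a1a (0.112), col18a1a (0.218) and col13a1 (0.233) were the least alike, and without these 2 libraries col18a1a stood at -0.821.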
